A study of Rattus norvegicus with 12 samples.

Results

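The genes studied here encode subunits of the mitochondrial respiratory chain (complexes I to IV) and of the ATP synthase (complex V), together with 4 assembly factors that share their gene symbols. They were taken as the features with RefSeq NM accessions whose rat symbol begins with Ndufa, Ndufb, Ndufc, Ndufs, Ndufv, Sdh, Uqcr, Cox4, Cox5, Cox6, Cox7, Cox8 or Atp5. This gave 55 features for 54 genes, of 26208 features and 9621 named genes in all: 17 genes of complex I, 4 of complex II, 5 of complex III, 13 of complex IV and 15 of complex V. Ndufaf3 had 2 features, and the brighter one stands for it. Of the 122 protein-coding rat genes with such symbols, 68 were not matched to a feature used here, so each complex was seen in part. No filter on low values was applied, and every count below is over all 54 genes.

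Whole lungs came from Sprague-Dawley rat pups. Pups with intrauterine growth restriction (IUGR), brought about with a diet low in protein, were compared with control pups at postnatal days 4, 10 and 21, during alveolarization. The series used 14 IUGR and 15 control pups, with RNA pooled from 2 or 3 pups per array and 2 arrays in each of the 6 groups (IUGR day 4, control day 4, IUGR day 10, control day 10, IUGR day 21 and control day 21). The labels give the pools as separate samples but not the litters, so the p-values below measure only spread between pools. Values are log2 intensities of one-colour arrays. They compare a gene between arrays, not one gene with another.

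The respiratory chain passes electrons from NADH (complex I) and succinate (complex II) through complex III to complex IV, which reduces oxygen to water. The proton gradient built on the way drives the ATP synthase, a rotary motor with a catalytic F1 head, a ring of c subunits in the membrane and a peripheral stalk that holds the head still. Heart muscle and brown fat are rich in mitochondria, and several complex IV subunits exist in tissue forms: Cox6a2 and Cox8b belong to heart and skeletal muscle (Cox8b also to brown fat), Cox4i2 is the lung form of subunit 4, and Cox6b2 and Cox8c are testis forms.

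Both IUGR arrays labelled replicate 2 at days 4 and 10 stood apart in genes of heart muscle and fat. Nppa, the atrial natriuretic peptide, read 7.46 and 12.08 in IUGR against 10.04 and 7.94 in control lung at day 4, 8.37 and 10.74 in IUGR against 7.24 and 7.17 in control lung at day 10 and 9.59 and 13.51 in IUGR against 5.67 in control lung at day 21. Myh6, the atrial myosin heavy chain, read 11.13 and 13.27 in IUGR against 11.98 and 11.19 in control lung at day 4, 10.35 and 12.25 in IUGR against 9.40 and 9.19 in control lung at day 10 and 8.79 and 12.71 in IUGR against 11.89 in control lung at day 21. In both genes replicate 2 of the IUGR group was the highest array of its day. Ucp1, the uncoupling protein of brown fat, read 7.91 and 12.02 in IUGR against 8.79 and 7.999 in control lung at day 4, 11.30 and 13.29 in IUGR against 7.71 and 9.15 in control lung at day 10 and 6.12 and 6.596 in IUGR against 13.23 in control lung at day 21. Adipoq, the fat hormone adiponectin, read 7.39 and 11.59 in IUGR against 8.10 and 8.12 in control lung at day 4, 9.36 and 11.44 in IUGR against 7.57 and 8.28 in control lung at day 10 and 5.72 and 7.48 in IUGR against 9.94 in control lung at day 21. For these fat genes the highest array was IUGR replicate 2 at days 4 and 10 but the control array at day 21.

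Over the lists, 11 of 17 heart muscle genes and 10 of 14 fat genes were measured, and none was listed at 0. The summed intensity of the heart list was 26776 and 75978 in IUGR against 28864 to 35874 in control lung at day 4, 14917 and 38169 in IUGR against 9773 to 9907 in control lung at day 10, and 10018 and 58054 in IUGR against 33865 in the control array at day 21. That of the fat list was 4965 and 21645 in IUGR against 5288 to 5404 in control lung at day 4, 9219 and 31332 in IUGR against 3579 to 4468 in control lung at day 10, and 2878 and 3487 in IUGR against 28117 in the control array at day 21. Such linear sums mostly follow the brightest genes, as Tnnt2 in the heart list. On the day 21 control array Fabp4 read 13.83 and Ucp1 13.23, while Lep read 5.10 and Adrb3 5.24. Myl2 and Myl3, ventricular light chains named after their values were seen, were dim on all 8 arrays of days 4 and 10, between 7.22 and 7.72. Summed skeletal muscle intensity (9 of 13 genes measured) was 2801 and 6745 in IUGR against 2765 to 3167 in control lung at day 4. That of red cell precursors (4 of 8 measured) was 18809 and 11282 in IUGR against 19584 to 21412 in control lung at day 4, 14969 and 14166 in IUGR against 12596 to 14369 in control lung at day 10, and 20540 and 15673 in IUGR against 23467 in the control array at day 21. All 4 red cell genes were lower in IUGR lung at day 4 (median -0.48) and none passed; the part of this in the day 4 values of the 54 genes was not tested. Markers of lung epithelium (10 of 11 measured) differed in brightness. The surfactant protein gene Sftpc read 15.31 to 15.62 on all 11 arrays, while Aqp5 read 8.97 to 9.37 on the 8 arrays of days 4 and 10. In pooled whole lung, fewer cells of a type and less RNA per cell cannot be told apart.

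The 8 arrays of the first 2 time points were alike, with medians between 411 and 418 intensity units and correlations to the rest of 0.986 to 0.996. The 2 IUGR arrays of day 21 and replicate 1 of its control had minimum intensities of 5.65 to 6.02, below those of days 4 and 10. Replicate 2 of that control had a minimum of 147.5 and a median of 726. Rows with XM accessions did not follow the other arrays at day 21, which was tested separately on 10097 NM features. Replicate 2 of the day 21 control was left out, because over these features it correlated with days 4 and 10 at 0.0900 while the other day 21 arrays did so at 0.946 to 0.948, so that 2 IUGR arrays stood against 1 control array there. The standard errors and p-values of day 21 thus rest on spread between the 2 IUGR arrays and hold nothing on spread between control pools.

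**Figure D1:**
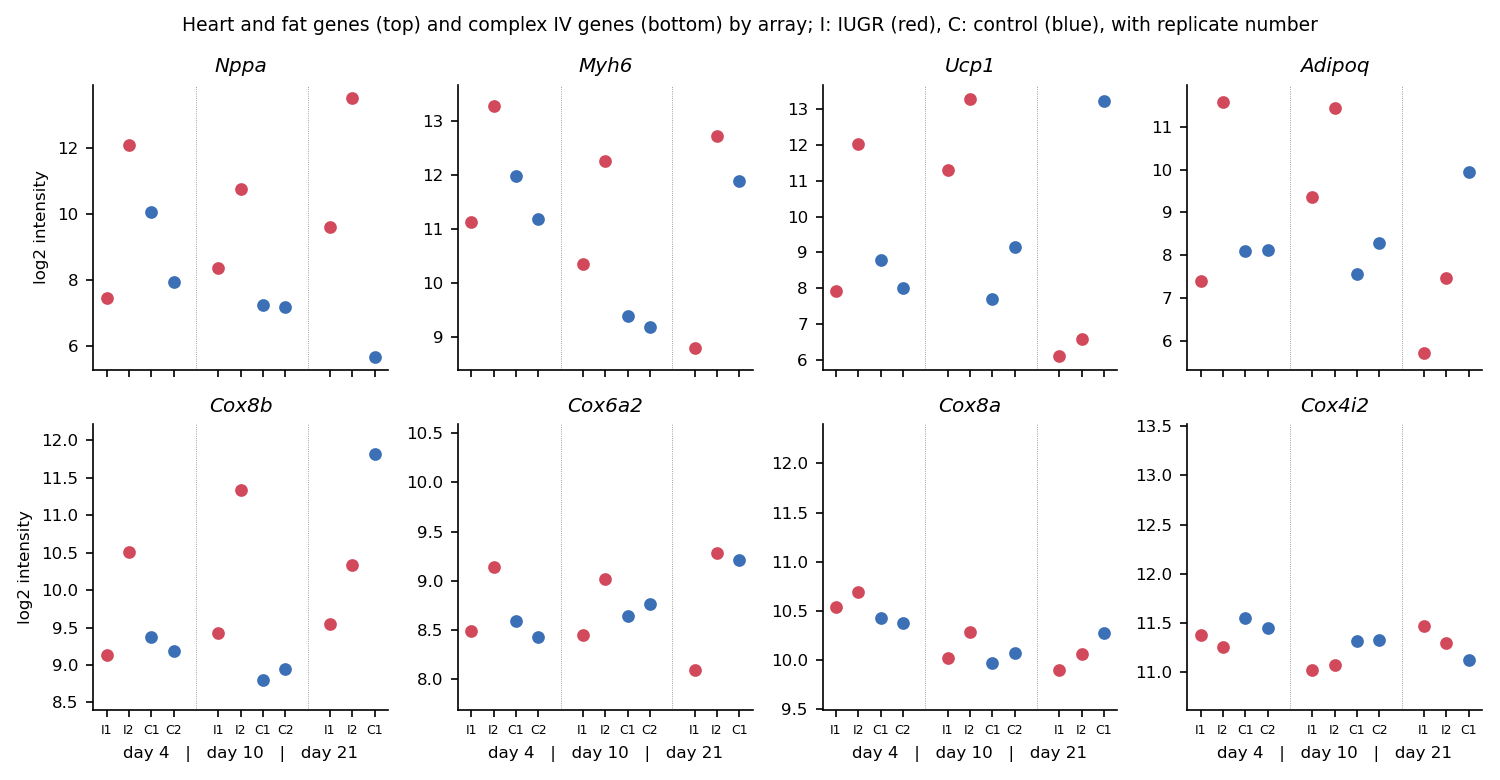
Log2 intensity (y axis) of 4 heart and fat genes (upper row) and 4 complex IV genes (lower row) on each array, by day, with IUGR in red and control in blue. Cox8b is highest on the array highest in Ucp1 on each day, with 11.34 on IUGR day 10 replicate 2 and 11.82 on the day 21 control array. On that control array Nppa is the lowest of its day, at 5.67. Cox4i2 stays within 11.02 to 11.55.

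At days 4 and 10 most respiratory chain and ATP synthase genes were slightly higher in IUGR lung. At day 4, 45 of the 54 genes were higher and 9 lower, with a median difference of 0.11 (IUGR minus control, log2), whereas over all features the median was 0.0033, with 50.9% higher and 49.1% lower. At day 10, 44 were higher and 10 lower, with a median of 0.094 against -0.0084 over all features, of which 47.2% were higher and 52.8% lower. None of the 54 passed an adjusted p of 0.05 on either day, and neither did any of the 26208 features (0% called in each direction at day 4 and at day 10; limma with Benjamini-Hochberg adjustment). At an unadjusted p under 0.05, 3 genes were higher and 0 lower at day 4 (background 4.12% higher and 5.47% lower), and 4 were higher and 1 lower at day 10 (background 3.88% higher and 4.11% lower).

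The shift was larger on replicate 2 of the IUGR group than on replicate 1. On IUGR day 4 replicate 1 the median gene lay 0.044 above the control mean of the day and on replicate 2 it lay 0.18 above. On IUGR day 10 replicate 1 it lay 0.026 below that mean (-0.026) and on replicate 2 it lay 0.20 above. At day 4, replicate 1 exceeded both controls for 29 genes and replicate 2 for 44, where 36.4% and 37.9% of all features did so. At day 10, replicate 1 exceeded both controls for 21 genes and lay below both for 25, where 36.2% and 39.3% of all features did so. Replicate 2 exceeded both for 46 and lay below both for 3, where 35.5% and 41.5% of all features did so. For 21 genes replicate 2 of IUGR day 10 lay above both controls and replicate 1 below both. That count was not made over all features. At days 4 and 10 the IUGR arrays named replicate 2 had the highest heart and fat signal of their day. On IUGR day 10 replicate 1, Ucp1 (11.30, controls 7.71 and 9.15) and Myh6 (10.35, controls 9.40 and 9.19) also lay above both controls. Leaving out both arrays named replicate 2 thus does not free day 10 of such signal. Without these 2 arrays the median difference was 0.044 at day 4 and -0.026 at day 10, each resting on 1 IUGR array. On that array alone 33 genes were higher and 21 lower than the control mean at day 4, and 25 higher and 29 lower at day 10.

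**Figure D2:**
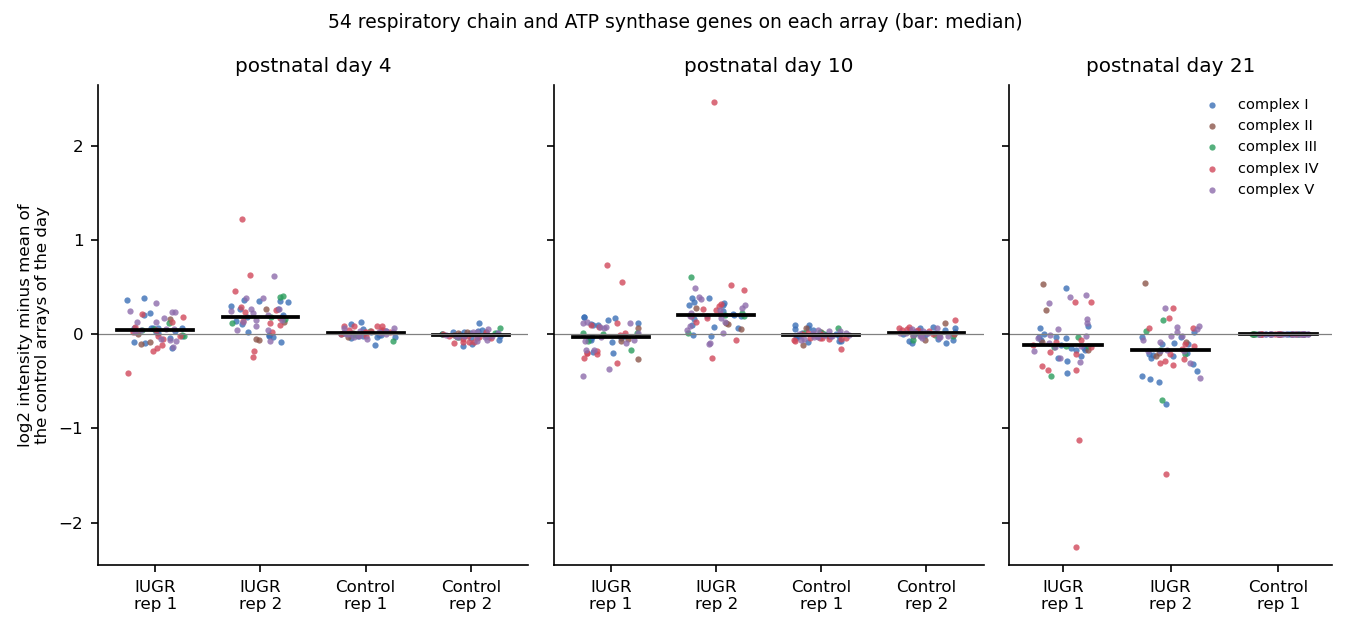
Log2 intensity of each of the 54 genes minus the mean of that day's control arrays (y axis), by array and day, with points coloured by complex and a bar at the median. The medians are 0.044 and 0.18 for the IUGR arrays of day 4, -0.026 and 0.20 for those of day 10, and -0.12 and -0.17 for those of day 21, where 1 control array gives the zero line.

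Both IUGR arrays lay above both controls for 26 genes at day 4 (48.1%, where 18.3% of all features did so) and below both for 4 (7.41%, background 19.1%). At day 10 the counts were 19 above (35.2%, background 19.9%) and 3 below (5.56%, background 23.6%). Across both days, 37 genes were higher at each, 2 lower at each, 8 higher at day 4 and lower at day 10, and 7 the reverse. That split was not counted over all features. The difference between both effects had a median of 0.0026 over the 54 genes, with 28 above 0 and 26 below (background 47.9% and 52.1%), and none passed (0% called; limma adjusted p). At an unadjusted p under 0.05, 1 gene had a higher and 2 a lower effect at day 10 than at day 4, against 3.84% and 3.53% of all features. With both days averaged, 47 genes were higher and 7 lower, with a median of 0.11 against -0.0049 over all features (48.0% higher and 52.0% lower), and again none passed (0% called). At an unadjusted p under 0.05 the average gave 8 higher and 1 lower gene, against 4.85% and 5.41% of all features.

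By complex, the median difference at day 4 was 0.10 for complex I, -0.0025 for complex II, 0.12 for complex III, 0.16 for complex IV and 0.12 for complex V. At day 10 it was 0.087, 0.045, 0.10, 0.047 and 0.11 in the same order. Without the 2 arrays high in heart and fat genes, those of day 4 were 0.061, -0.040, 0.045, -0.022 and 0.060, and those of day 10 were -0.019, -0.063, 0.00082, -0.0066 and -0.033.

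**Figure D3:**
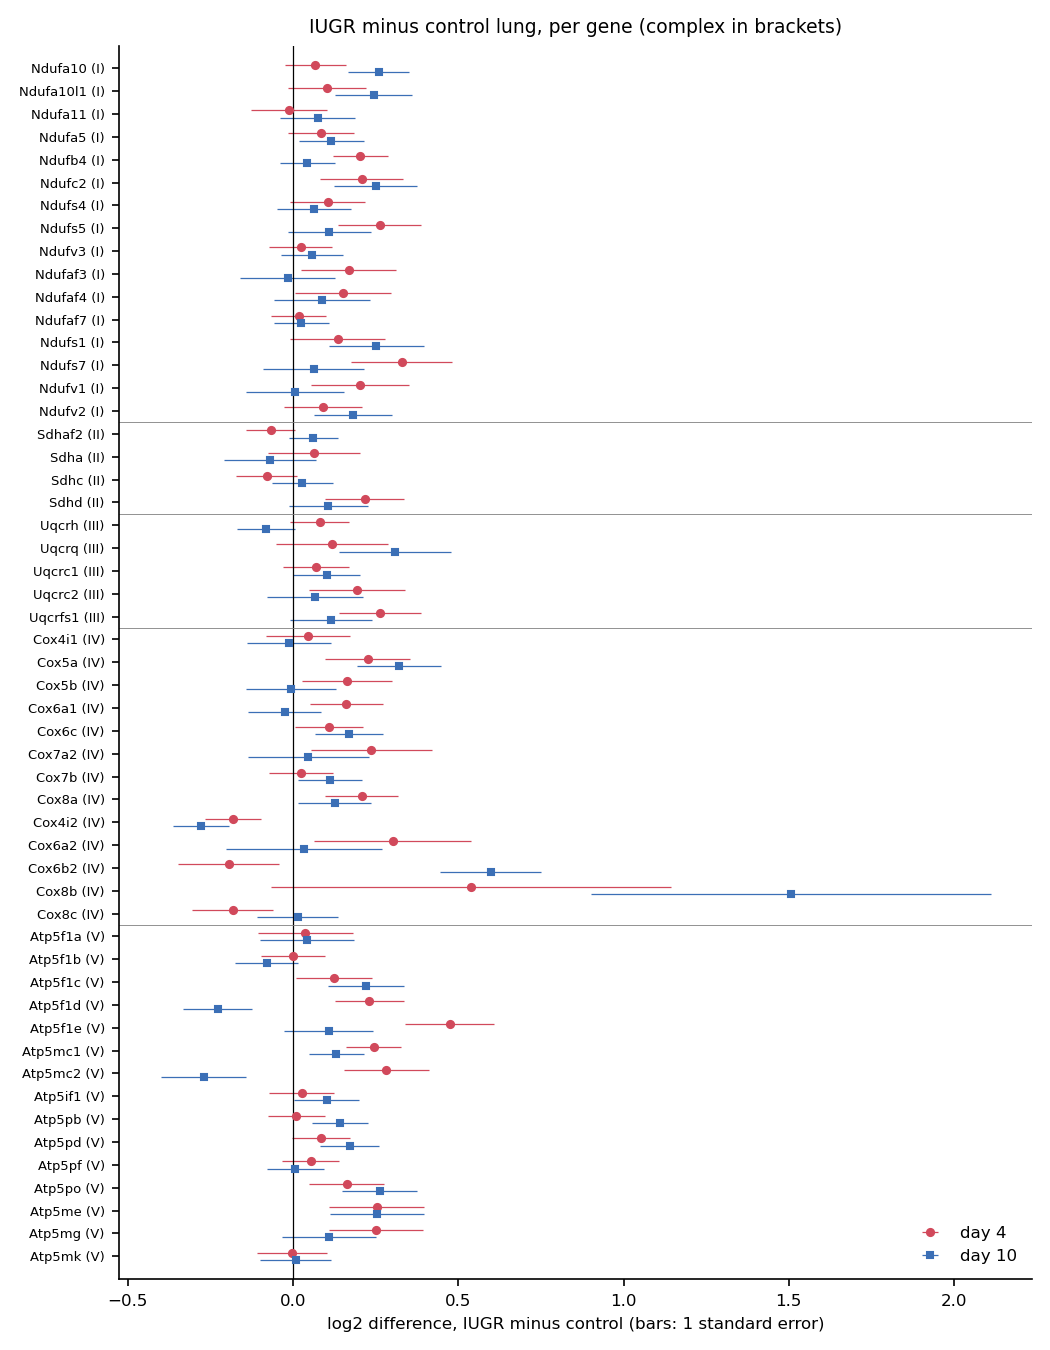
Log2 difference between IUGR and control lung (x axis) for 53 of the 54 genes, with complex in brackets, at day 4 (red circles) and day 10 (blue squares), with bars of 1 standard error from limma. Most points lie right of zero on both days, Cox8b stands at 1.51 at day 10 with a standard error of 0.60, and Cox4i2 lies left of zero on both days.

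Complex I takes electrons from NADH through a flavin and a chain of iron-sulphur clusters. Of its 17 measured genes, 15 were higher in IUGR lung at day 4 and 16 at day 10. Ndufs7, a core subunit holding the cluster next to the quinone site, read 10.58 and 10.47 in IUGR against 10.19 and 10.20 in control lung at day 4, a difference of 0.33 ± 0.15 (SE, n = 2 and 2; adjusted p = 0.543). At day 10 it read 9.82 and 10.32 in IUGR against 9.94 and 10.08 in control lung, and at day 21 10.09 and 9.59 in IUGR against 10.34 in control lung. The groups separated at day 4 and overlapped at day 10. Ndufa11, an accessory subunit, was lower in IUGR lung at day 4 by a small amount (-0.012). Ndufv1, the flavoprotein that first binds NADH, read 11.13 and 11.40 in IUGR against 11.06 and 11.07 in control lung at day 4, 10.63 and 11.03 in IUGR against 10.76 and 10.89 in control lung at day 10 and 11.17 and 11.06 in IUGR against 11.09 in control lung at day 21. Its day 4 control values lay within 0.02 of each other, and its day 10 IUGR values lay on both sides of the controls.

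Among the accessory subunits, which surround the core, Ndufs5 read 11.88 and 11.95 in IUGR against 11.67 and 11.64 in control lung at day 4, 11.23 and 11.62 in IUGR against 11.31 and 11.33 in control lung at day 10 and 11.36 and 11.29 in IUGR against 11.38 in control lung at day 21. Ndufc2 read 13.65 and 13.94 in IUGR against 13.58 and 13.59 in control lung at day 4, 13.38 and 13.65 in IUGR against 13.25 and 13.29 in control lung at day 10 and 13.67 and 13.69 in IUGR against 13.66 in control lung at day 21. Both IUGR pools exceeded both controls for Ndufc2 on days 4 and 10 (average difference 0.23 ± 0.089, adjusted p = 0.457). Ndufb4 read 13.14 and 13.15 in IUGR against 12.95 and 12.93 in control lung at day 4, 13.12 and 13.00 in IUGR against 12.97 and 13.06 in control lung at day 10 and 13.11 and 13.17 in IUGR against 13.28 in control lung at day 21. Ndufa10 read 11.96 and 12.05 in IUGR against 11.91 and 11.97 in control lung at day 4 and 11.99 and 12.15 in IUGR against 11.86 and 11.76 in control lung at day 10, a day 10 difference of 0.26 ± 0.092 (adjusted p = 0.557). Its paralogue Ndufa10l1 read 11.88 and 11.96 in IUGR against 11.77 and 11.86 in control lung at day 4 and 11.79 and 12.08 in IUGR against 11.78 and 11.60 in control lung at day 10. Ndufa10l1 is named as a copy of Ndufa10, and 29 of the 54 genes also have a named pseudogene, so that signals of such copies may not be separable. At day 21 Ndufa10 read 12.07 and 11.75 in IUGR against 12.19 in control lung and Ndufa10l1 read 11.73 and 11.49 in IUGR against 11.96 in control lung.

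Ndufa5 read 12.78 and 12.98 in IUGR against 12.80 and 12.79 in control lung at day 4, 13.06 and 12.95 in IUGR against 12.95 and 12.83 in control lung at day 10 and 12.97 and 13.15 in IUGR against 13.38 in control lung at day 21. Ndufa11 read 12.48 and 12.33 in IUGR against 12.52 and 12.31 in control lung at day 4, 11.97 and 12.20 in IUGR against 11.997 and 12.02 in control lung at day 10 and 11.75 and 11.40 in IUGR against 11.90 in control lung at day 21. Ndufa11 had IUGR values within or astride the control values at days 4 and 10. The assembly factor Ndufaf4 read 12.04 and 12.44 in IUGR against 11.97 and 12.20 in control lung at day 4, 12.22 and 12.20 in IUGR against 12.22 and 12.02 in control lung at day 10 and 12.13 and 12.10 in IUGR against 12.41 in control lung at day 21. The features of Ndufaf3, another assembly factor, disagreed in sign at day 10, with differences of -0.016 and 0.0064.

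Complex II oxidises succinate and is shared with the citric acid cycle. It showed no common direction: 2 of 4 genes were higher in IUGR lung at day 4 and 3 at day 10. Sdha, its flavoprotein, read 12.09 and 12.22 in IUGR against 12.10 and 12.08 in control lung at day 4 and 11.94 and 12.33 in IUGR against 12.09 and 12.32 in control lung at day 10. At day 21 Sdha read 12.76 and 12.76 in IUGR against 12.22 in control lung, the highest of the 54 differences of that day (0.54 ± 0.22, SE, n = 2 and 1; adjusted p = 0.945). The membrane anchor Sdhc read 12.82 and 12.86 in IUGR against 12.89 and 12.94 in control lung at day 4, 12.91 and 13.07 in IUGR against 13.02 and 12.90 in control lung at day 10 and 13.04 and 13.01 in IUGR against 13.20 in control lung at day 21. The assembly factor Sdhaf2, which helps to attach the flavin, read 11.38 and 11.40 in IUGR against 11.44 and 11.47 in control lung at day 4, 11.29 and 11.27 in IUGR against 11.20 and 11.24 in control lung at day 10 and 11.43 and 11.09 in IUGR against 11.18 in control lung at day 21. Sdhaf2 was below both controls at day 4 and above both at day 10, by small amounts (-0.068 and 0.062).

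Complex III moves electrons from ubiquinol to cytochrome c. All 5 measured genes were higher in IUGR lung at day 4 and 4 of 5 at day 10. Uqcrfs1, the Rieske iron-sulphur protein, read 11.94 and 12.23 in IUGR against 11.85 and 11.79 in control lung at day 4 (0.26 ± 0.12, adjusted p = 0.543), 11.56 and 11.79 in IUGR against 11.62 and 11.50 in control lung at day 10 and 11.77 and 11.73 in IUGR against 11.90 in control lung at day 21. The small subunit Uqcrq read 12.70 and 12.82 in IUGR against 12.64 and 12.65 in control lung at day 4, 12.24 and 12.82 in IUGR against 12.24 and 12.20 in control lung at day 10 and 11.97 and 11.72 in IUGR against 12.41 in control lung at day 21. The day 10 difference of Uqcrq (0.31 ± 0.17) came from replicate 2 alone, while at day 21 both IUGR arrays lay below the control. Uqcrh, the hinge protein, read 13.85 and 13.93 in IUGR against 13.80 and 13.82 in control lung at day 4, 13.58 and 13.76 in IUGR against 13.75 and 13.75 in control lung at day 10 and 14.13 and 13.95 in IUGR against 14.16 in control lung at day 21.

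Complex IV was measured in common and in tissue forms. Of the 5 tissue forms, 2 were higher in IUGR lung at day 4 and 4 at day 10. The 8 common-form genes were all higher in IUGR lung at day 4 (median 0.16), 5 of 8 were higher at day 10 (median 0.079), and none passed. Cox4i1 read 13.99 and 14.13 in IUGR against 14.05 and 13.97 in control lung at day 4, 13.67 and 14.05 in IUGR against 13.88 and 13.87 in control lung at day 10 and 14.20 and 14.05 in IUGR against 14.31 in control lung at day 21. Cox6a1 read 13.84 and 13.80 in IUGR against 13.68 and 13.63 in control lung at day 4, 13.43 and 13.74 in IUGR against 13.58 and 13.65 in control lung at day 10 and 13.85 and 13.61 in IUGR against 13.93 in control lung at day 21. Cox7a2 read 12.27 and 12.71 in IUGR against 12.23 and 12.27 in control lung at day 4, 11.73 and 12.23 in IUGR against 11.89 and 11.97 in control lung at day 10 and 12.27 and 12.31 in IUGR against 12.41 in control lung at day 21. In these 3 genes the IUGR pools of day 10 lay on both sides of the controls. Cox8a read 10.54 and 10.69 in IUGR against 10.43 and 10.38 in control lung at day 4, 10.02 and 10.28 in IUGR against 9.98 and 10.08 in control lung at day 10 and 9.90 and 10.07 in IUGR against 10.28 in control lung at day 21. Cox5a, which binds a thyroid hormone metabolite in other mammals, read 13.25 and 13.26 in IUGR against 13.07 and 12.98 in control lung at day 4 and 12.89 and 13.28 in IUGR against 12.72 and 12.81 in control lung at day 10. It separated the groups on both days, with an average difference of 0.27 ± 0.09 (adjusted p = 0.418). At day 21 Cox5a read 13.00 and 13.03 in IUGR against 13.33 in control lung, and Cox7b read 13.72 and 13.82 in IUGR against 14.10 in control lung. On the earlier days Cox7b read 13.82 and 13.96 in IUGR against 13.86 and 13.86 in control lung at day 4 and 13.62 and 13.82 in IUGR against 13.60 and 13.61 in control lung at day 10.

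The muscle forms were highest on single arrays. Cox8b read 9.13 and 10.51 in IUGR against 9.37 and 9.19 in control lung at day 4, 9.43 and 11.34 in IUGR against 8.80 and 8.95 in control lung at day 10 and 9.55 and 10.33 in IUGR against 11.82 in control lung at day 21. Its differences were 0.54 ± 0.60 at day 4, 1.51 ± 0.60 at day 10 and -1.87 ± 0.38 at day 21, the widest range of the 54 genes, with adjusted p of 0.806, 0.595 and 0.517. The arrays highest in Cox8b were those highest in Ucp1 on each day. Cox6a2 read 8.49 and 9.14 in IUGR against 8.60 and 8.43 in control lung at day 4, 8.45 and 9.02 in IUGR against 8.64 and 8.76 in control lung at day 10 and 8.09 and 9.28 in IUGR against 9.21 in control lung at day 21. Its highest array on each day was the one highest in Nppa and Myh6. At day 21, however, the control array, lowest in Nppa, read nearly as high (9.21 against 9.28). Without the 2 arrays high in heart and fat genes, Cox8b was -0.15 at day 4 and 0.55 at day 10, and Cox6a2 was -0.024 at day 4 and -0.25 at day 10.

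Cox4i2 ran the other way from most of the 54 genes. It read 11.38 and 11.26 in IUGR against 11.55 and 11.45 in control lung at day 4 and 11.02 and 11.07 in IUGR against 11.32 and 11.33 in control lung at day 10, so that both IUGR pools lay below both controls on each day. The differences were -0.18 ± 0.085 and -0.28 ± 0.085, and the average was -0.23 ± 0.06 (SE, n = 4 and 4; adjusted p = 0.381), which did not pass. At day 21 it read 11.47 and 11.30 in IUGR against 11.13 in control lung, above the control. The testis form Cox6b2 read 10.89 and 11.33 in IUGR against 11.33 and 11.29 in control lung at day 4, 11.33 and 11.06 in IUGR against 10.55 and 10.64 in control lung at day 10 and 10.39 and 10.12 in IUGR against 10.05 in control lung at day 21. Its day 10 difference of 0.60 ± 0.15 (adjusted p = 0.441) separated the groups, with replicate 1 the higher IUGR array. Cox8c, the other testis form, was dim, at 7.56 and 7.56 in IUGR against 7.83 and 7.66 in control lung at day 4, 7.53 and 7.38 in IUGR against 7.29 and 7.59 in control lung at day 10 and 5.16 and 5.50 in IUGR against 5.23 in control lung at day 21.

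In the ATP synthase 13 of 15 genes were higher in IUGR lung at day 4 and 12 at day 10. Atp5f1e, the small epsilon subunit of the F1 central stalk, read 11.97 and 12.25 in IUGR against 11.67 and 11.60 in control lung at day 4, a difference of 0.47 ± 0.13 (1.39-fold, n = 2 and 2; adjusted p = 0.387). It read 11.25 and 11.59 in IUGR against 11.34 and 11.28 in control lung at day 10 and 11.54 and 11.66 in IUGR against 11.59 in control lung at day 21. The c-ring gene Atp5mc1 read 12.69 and 12.69 in IUGR against 12.46 and 12.43 in control lung at day 4 and 12.42 and 12.55 in IUGR against 12.39 and 12.33 in control lung at day 10. Both IUGR pools of both genes lay above both controls at day 4. Atp5po, a subunit of the peripheral stalk that joins it to F1, read 11.998 and 12.20 in IUGR against 11.94 and 11.94 in control lung at day 4, 11.74 and 12.01 in IUGR against 11.60 and 11.62 in control lung at day 10 and 11.80 and 11.55 in IUGR against 11.46 in control lung at day 21. It was above every control of its day on all 6 IUGR arrays. The membrane subunit Atp5me read 12.43 and 12.46 in IUGR against 12.20 and 12.19 in control lung at day 4, 11.87 and 12.35 in IUGR against 11.84 and 11.88 in control lung at day 10 and 11.99 and 11.70 in IUGR against 12.17 in control lung at day 21.

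Atp5f1d and Atp5mc2 changed side between the days. Atp5f1d, the delta subunit of the central stalk, read 9.16 and 9.16 in IUGR against 8.91 and 8.96 in control lung at day 4, 8.30 and 8.58 in IUGR against 8.71 and 8.62 in control lung at day 10 and 8.14 and 7.80 in IUGR against 7.97 in control lung at day 21. Atp5mc2, another c-ring gene whose mature protein equals that of Atp5mc1, read 11.85 and 12.06 in IUGR against 11.62 and 11.73 in control lung at day 4, 10.89 and 11.23 in IUGR against 11.34 and 11.31 in control lung at day 10 and 11.48 and 11.10 in IUGR against 11.08 in control lung at day 21. In both genes the 2 IUGR pools lay above both controls at day 4 and below both at day 10. The effect at day 10 minus that at day 4 was -0.46 ± 0.15 for Atp5f1d (adjusted p = 0.587) and -0.55 ± 0.18 for Atp5mc2 (adjusted p = 0.591), so neither passed. Atp5f1b, the catalytic beta subunit, read 14.26 and 14.36 in IUGR against 14.34 and 14.29 in control lung at day 4, 14.01 and 14.19 in IUGR against 14.12 and 14.25 in control lung at day 10 and 14.53 and 14.39 in IUGR against 14.11 in control lung at day 21. Atp5f1c, the gamma shaft, read 12.25 and 12.41 in IUGR against 12.24 and 12.18 in control lung at day 4, 11.90 and 12.20 in IUGR against 11.80 and 11.86 in control lung at day 10 and 12.07 and 11.93 in IUGR against 11.95 in control lung at day 21.

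The promoters of 5 genes are shown because these genes mark the contrasts above: Cox8b and Cox6a2 (muscle forms, highest on single arrays), Cox8a (common form) and the ATP synthase genes Atp5mc2 and Atp5me. Each is 300 bases from RefSeq on GRCr8, from 250 before to 50 after the annotated start, 5′ to 3′ on the gene's strand. Capitals mark matches on either strand to the motifs searched: GCGCATGCG of NRF1, CCGGAAG of ETS factors such as GABP, GGGCGG of SP1, AAGATGGC of YY1, AAGGTCA of oestrogen-related receptors, CTANNNNTA of MEF2 and TATAAA.

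Cox8b, chr1:205408224-205408523, minus strand: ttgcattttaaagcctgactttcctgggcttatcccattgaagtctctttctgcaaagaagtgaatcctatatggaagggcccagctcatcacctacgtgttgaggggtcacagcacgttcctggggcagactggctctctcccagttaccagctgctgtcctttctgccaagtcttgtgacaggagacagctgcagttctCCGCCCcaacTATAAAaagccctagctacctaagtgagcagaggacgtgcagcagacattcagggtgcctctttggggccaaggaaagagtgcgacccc

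Cox6a2, chr1:192219667-192219966, minus strand: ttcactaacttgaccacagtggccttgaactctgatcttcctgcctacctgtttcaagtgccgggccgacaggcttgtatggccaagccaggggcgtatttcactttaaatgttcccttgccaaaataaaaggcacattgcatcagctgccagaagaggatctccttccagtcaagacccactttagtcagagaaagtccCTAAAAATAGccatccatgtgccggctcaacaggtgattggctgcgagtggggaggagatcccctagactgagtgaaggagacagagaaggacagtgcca

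Cox8a, chr1:213833574-213833873, minus strand: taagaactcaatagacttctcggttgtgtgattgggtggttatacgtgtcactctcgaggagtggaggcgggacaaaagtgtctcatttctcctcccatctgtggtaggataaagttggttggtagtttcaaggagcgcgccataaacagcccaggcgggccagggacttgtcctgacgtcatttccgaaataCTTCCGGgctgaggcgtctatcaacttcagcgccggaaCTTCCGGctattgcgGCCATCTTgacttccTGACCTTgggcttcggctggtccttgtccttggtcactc

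Atp5mc2, chr7:135678169-135678468, minus strand: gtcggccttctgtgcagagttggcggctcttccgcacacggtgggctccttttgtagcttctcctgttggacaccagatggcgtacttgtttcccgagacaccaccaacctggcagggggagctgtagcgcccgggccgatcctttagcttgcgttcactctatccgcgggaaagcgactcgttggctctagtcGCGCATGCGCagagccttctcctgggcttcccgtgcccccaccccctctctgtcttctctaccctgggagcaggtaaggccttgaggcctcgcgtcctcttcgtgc

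Atp5me, chr14:1464610-1464909, plus strand: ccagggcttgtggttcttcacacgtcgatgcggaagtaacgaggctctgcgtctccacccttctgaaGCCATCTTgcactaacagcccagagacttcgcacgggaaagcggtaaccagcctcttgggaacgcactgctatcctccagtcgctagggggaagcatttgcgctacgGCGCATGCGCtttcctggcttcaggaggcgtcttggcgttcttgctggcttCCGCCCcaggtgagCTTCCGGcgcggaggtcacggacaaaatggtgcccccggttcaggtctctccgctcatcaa

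The Cox8b promoter held a TATA box and an SP1 match, and that of Cox6a2 a MEF2 match read on both strands. The Cox8a promoter held matches for ETS (2), YY1 and oestrogen-related receptors, that of Atp5mc2 for NRF1 on both strands, and that of Atp5me for NRF1 on both strands, ETS, SP1 and YY1. Of the 54 genes, 48 had a promoter in the table. NRF1 matches stood in 7 of the 48 (14.6%, against 1.65% of all 27457 promoters), ETS matches in 15 (31.2%, against 9.21%), YY1 in 8 (16.7%, against 3.41%) and oestrogen-related receptor matches in 8 (16.7%, against 4.37%). SP1 matches stood in 23 (47.9%, against 34.7%), MEF2 in 8 (16.7%, against 22.2%) and TATAAA in 3 (6.25%, against 14.3%). The E-box CANNTG, not capitalised above, stood in 31 (64.6%, against 71.7%). Matches to different motifs overlapped in 0 of the 48 promoters. The median GC content was 58.0% against 52.3% over all promoters. These matches are descriptions of sequence, with no test.

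Most of the genes were lower at day 10 than at day 4 in both diets. The comparisons of age use the same 8 arrays as those of diet. In IUGR lung 48 of 54 were lower at day 10 (median -0.20, against -0.028 over all features, of which 55.2% were lower and 44.8% higher). Leaving out single arrays gave medians of -0.31 to -0.10 in IUGR lung and -0.24 to -0.19 in control lung. In control lung 48 of 54 were also lower (median -0.21, against -0.012 over all features, of which 52.9% were lower and 47.1% higher). Counted over the 54 genes, 6 passed as lower in IUGR lung (11.1%, background 6.16%) and 1 in control lung (1.85%, background 1.99%). Calls in either direction made up 13.0% of all features in IUGR and 4.28% in control lung. None passed as higher in IUGR lung (background 6.83%) or in control lung (background 2.29%). At an unadjusted p under 0.05, 20 genes were lower in IUGR lung (background 16.1%) and 20 in control lung (background 11.0%), and 0 were higher in either (background 13.7% and 10.1%). Both pools of day 10 lay below both pools of day 4 for 29 genes in IUGR lung (background 30.4%) and for 44 in control lung (background 30.9%). They lay above both for 1 gene in IUGR lung (background 23.9%) and for 3 in control lung (background 27.0%).

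The ATP synthase was lower throughout: all 15 genes were lower at day 10 in each diet, with medians of -0.23 in IUGR and -0.27 in control lung. The medians in IUGR lung were -0.097 for complex I, -0.062 for complex II, -0.22 for complex III and -0.17 for complex IV. In control lung they were -0.19, -0.077, -0.24 and -0.26 in the same order. The heart list also had lower values at day 10, with a median of -0.687 in IUGR and -1.001 in control lung. Lung epithelium markers were lower as well, 9 of 10 in IUGR lung (median -0.29, 4 past the adjusted threshold) and 8 of 10 in control lung (median -0.15, 0 past it). The part of either list in the lower values of the 54 genes was not tested. In control lung, whose heart list was lowest at day 10, Cox8b was -0.41 and Cox6a2 0.19.

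**Figure D4:**
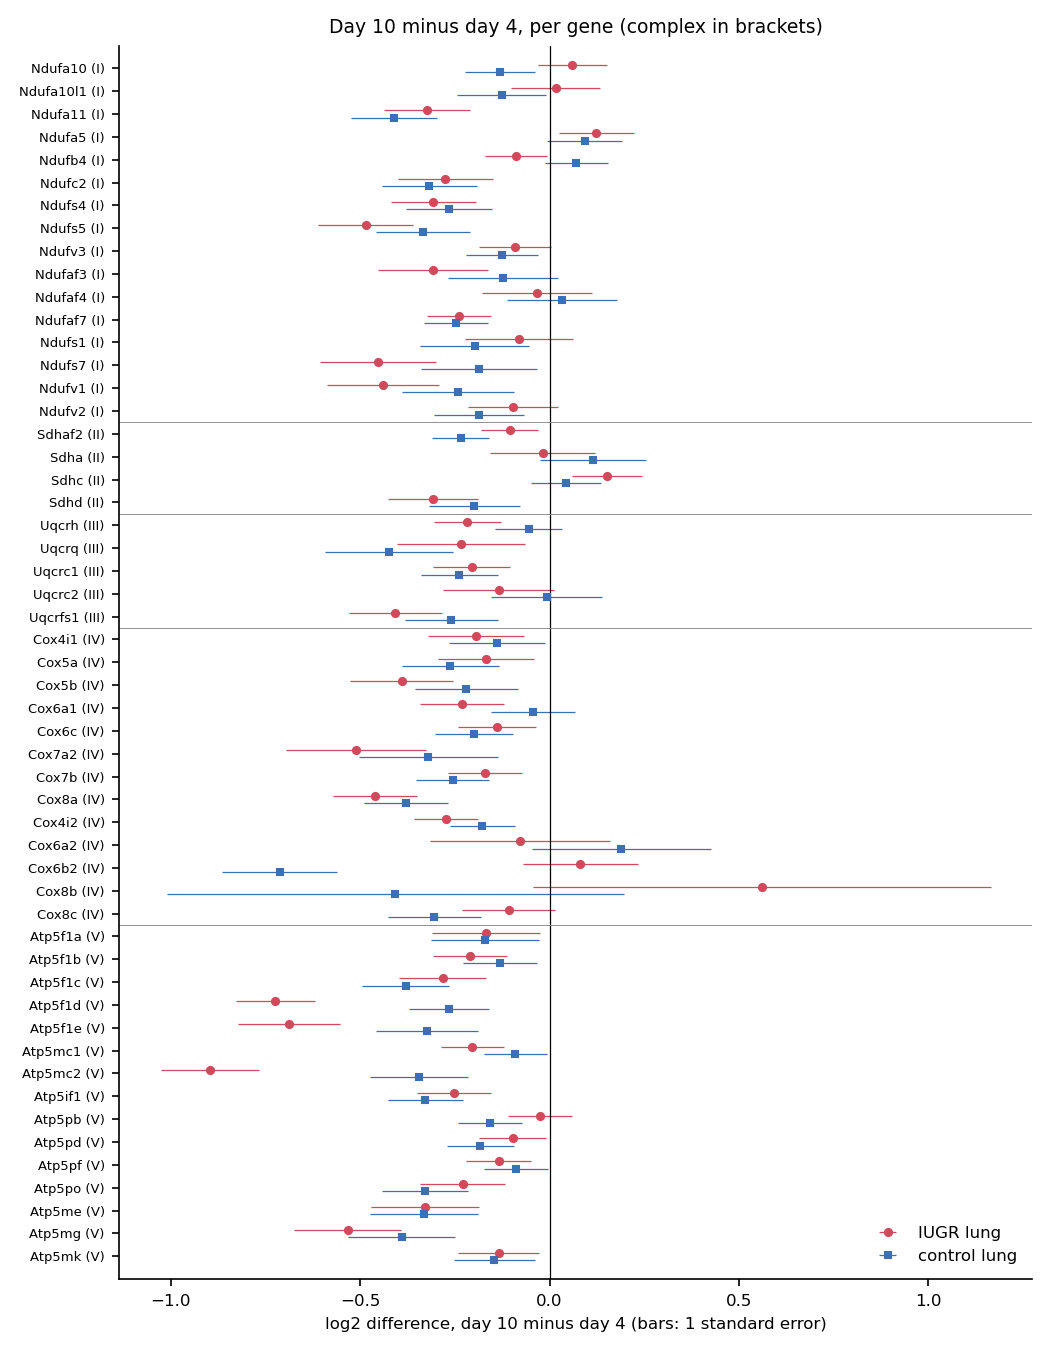
Log2 difference between day 10 and day 4 (x axis) for 53 of the 54 genes, with complex in brackets, in IUGR lung (red circles) and control lung (blue squares), with bars of 1 standard error from limma. All 15 complex V genes lie left of zero in both diets, and Atp5mc2 reaches -0.90 in IUGR lung.

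The 6 genes that passed as lower at day 10 in IUGR lung were Atp5mc2, Atp5f1d, Atp5f1e and Atp5mg of the ATP synthase, Ndufs5 of complex I and Cox8a of complex IV. Atp5mc2 read 10.89 and 11.23 at day 10 against 11.85 and 12.06 at day 4 in IUGR lung, a difference of -0.90 ± 0.13 (SE, n = 2 and 2; adjusted p = 0.00783). In control lung it read 11.34 and 11.31 at day 10 against 11.62 and 11.73 at day 4 (-0.34 ± 0.13, adjusted p = 0.178). Atp5f1d read 8.30 and 8.58 at day 10 against 9.16 and 9.16 at day 4 in IUGR lung (-0.72 ± 0.10, adjusted p = 0.00797). In control lung Atp5f1d differed by -0.27 ± 0.10 (adjusted p = 0.199). For both genes the pools of day 10 lay below those of day 4 in each diet. Their day 4 IUGR values were above the day 4 controls and their day 10 IUGR values below the day 10 controls, as given above.

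Atp5f1e read 11.25 and 11.59 at day 10 against 11.97 and 12.25 at day 4 in IUGR lung (-0.69 ± 0.13, adjusted p = 0.019). The membrane subunit Atp5mg read 11.91 and 12.31 at day 10 against 12.51 and 12.77 at day 4 in IUGR lung (-0.53 ± 0.14, adjusted p = 0.0469) and 12.004 and 11.996 at day 10 against 12.37 and 12.41 at day 4 in control lung. Ndufs5 differed by -0.49 ± 0.12 (adjusted p = 0.0426) and Cox8a by -0.46 ± 0.11 (adjusted p = 0.035) in IUGR lung. In control lung the values were -0.32 for Atp5f1e, -0.39 for Atp5mg, -0.33 for Ndufs5 and -0.38 for Cox8a, none of which passed. The call in IUGR lung is not shown to differ from control lung for any of the 6 genes, since the difference between both effects passed for none. Over 15 alternative settings Atp5mc2 and Atp5f1d passed in 15, Atp5f1e in 13, Cox8a in 9, and Atp5mg and Ndufs5 in 7 each. The number of genes called lower in IUGR lung was 12 when replicate 2 of IUGR day 10 was left out, 2 when its replicate 1 was, 2 when replicate 2 of IUGR day 4 was, 7 when its replicate 1 was, and 3 when any one of the 4 control arrays was. The share of all features called lower moved too, to 2.96%, 0.572%, 5.72% and 7.73% in the same order for the IUGR arrays and to between 2.67% and 3.79% for the control arrays.

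The 1 gene that passed as lower at day 10 in control lung was Cox6b2. It read 10.55 and 10.64 at day 10 against 11.33 and 11.29 at day 4 in control lung (-0.71 ± 0.15, adjusted p = 0.0448) but 11.33 and 11.06 at day 10 against 10.89 and 11.33 at day 4 in IUGR lung (0.081 ± 0.15, adjusted p = 0.768). The difference between both changes was 0.79 ± 0.21 (adjusted p = 0.495) and did not pass. The call was lost without any one of the 4 control arrays or without either IUGR array of day 10 (0 genes each), and also under quantile normalization and with the replicate block. It passed in 7 of 15 alternative settings. Only 6 genes were higher at day 10 in each diet, and none passed. Sdhc differed by 0.15 in IUGR and 0.044 in control lung, and Ndufa5 by 0.12 in IUGR and 0.092 in control lung.

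At day 21 the direction was opposite, with 39 of 54 genes lower in IUGR lung and 15 higher (median -0.13, against 0.0017 over the 10097 NM features, of which 49.7% were lower and 50.3% higher). None passed (background 0.00990% lower and 0% higher; limma adjusted p), and at an unadjusted p under 0.05 only Cox8b was lower (background 2.91%) and 0 were higher (background 2.55%). The control array lay above both IUGR arrays for 35 genes (64.8%, background 31.3%) and below both for 8 (14.8%, background 32.1%). The median gene lay 0.12 below the control on IUGR replicate 1 (-0.12) and 0.17 below on replicate 2 (-0.17). With 1 control pool, a difference between the diets and a feature of that pool cannot be told apart, and the control array also carried 28117 of summed fat intensity against 2878 and 3487 in IUGR lung. The part of that signal in the day 21 values was not tested.

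All 8 common-form complex IV genes had the control array above both IUGR arrays at day 21, with differences of -0.12 to -0.33. The medians by complex were -0.14 for complex I, -0.034 for complex II, -0.12 for complex III, -0.19 for complex IV and -0.033 for complex V. After Cox8b, the lowest differences were those of Uqcrq (-0.57 ± 0.25), Cox6a2 (-0.53 ± 0.52), Ndufs7 (-0.50 ± 0.30), Ndufa10l1 (-0.35 ± 0.24) and Cox7b (-0.33 ± 0.23). After Sdha, the highest were those of Atp5f1b (0.34 ± 0.23), Cox4i2 (0.26 ± 0.23), Atp5mc2 (0.21 ± 0.27), Atp5po (0.21 ± 0.24) and Cox6b2 (0.21 ± 0.25). A total of 30 genes were higher in IUGR lung at days 4 and 10 and lower at day 21. The share of NM features with that pattern was not counted, and its day 21 sign rests on 1 control array.

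**Figure D5:**
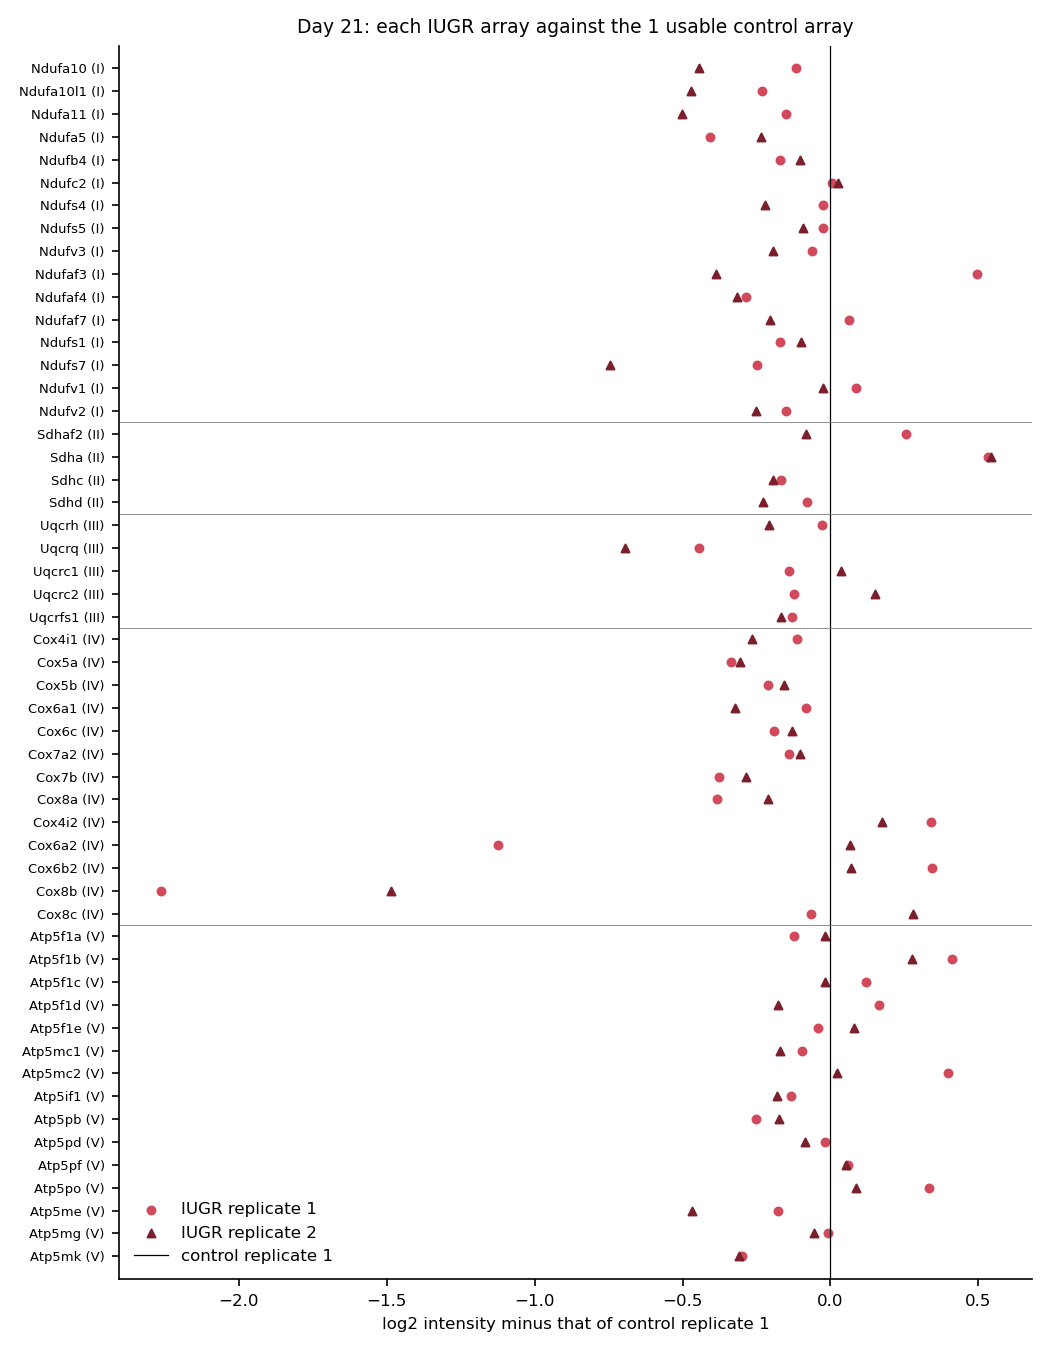
Log2 intensity of 53 of the 54 genes on the 2 IUGR arrays of day 21 minus that on the 1 usable control array (x axis), with complex in brackets. The control array lies above both IUGR arrays for most genes, among them all 8 common-form complex IV genes, and Cox8b lies lowest.

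Lists of other mitochondrial genes did not all have the same direction. A list of citric acid cycle enzymes, which supply NADH and succinate to the chain, also held pyruvate dehydrogenase genes (Pdha1, Pdhb and Dlat). Of this list 14 of 16 were measured, and 14 of 14 were higher in IUGR lung at day 4 (median 0.096) and 14 of 14 at day 10 (median 0.18). At day 10 all 14 were higher on IUGR replicate 2 than on IUGR replicate 1 (median 0.24). At day 21, 11 of the 14 were lower (median -0.22). A mixed list held cytochrome c, the ETF genes with the ETF dehydrogenase, Coq genes of ubiquinone synthesis and the ADP/ATP carriers Slc25a4 and Slc25a5. Of its 13 measured genes, 12 were higher at day 4, 11 at day 10 and 2 at day 21. None of these genes passed in any comparison of IUGR with control lung. Idh3a, a subunit of the NAD-linked isocitrate dehydrogenase, read 11.31 and 11.91 in IUGR against 11.02 and 11.09 in control lung at day 10 (0.56 ± 0.17, limma adjusted p = 0.488). Ppargc1b, a coactivator that promotes mitochondrial biogenesis, read 9.02 and 10.30 in IUGR against 9.15 and 8.69 in control lung at day 10 and 8.85 and 8.78 in IUGR against 10.00 in control lung at day 21. Ppargc1a, of the same list, read 10.30 and 10.24 in IUGR against 10.27 and 10.19 in control lung at day 10. At day 21 Ppargc1a went the other way from Ppargc1b, with 10.83 and 10.89 in IUGR against 10.42 in control lung. Of 7 measured regulators of biogenesis, 5 were higher at day 4, 6 at day 10 and 1 at day 21, and of 6 measured assembly factors outside the 54 genes 4 were higher at day 4, 0 at day 10 (median -0.097) and 3 at day 21.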

How the data were processed

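Total RNA of pooled whole lungs was labelled with Cy3 and hybridised to NimbleGen arrays, per the labels' protocols. The deposited table holds 1 linear intensity per feature and array, and the submitters' processing notes name RMA; other settings are not given in the sources used here. The intensity values were taken as deposited by the authors and converted to log2, with no further normalization. Days 4 and 10 (8 arrays, 26208 features) were fitted together with limma 3.58.1 in R 4.3.3, with contrasts for IUGR minus control at each day, their average and difference, and day 10 minus day 4 within each diet. Day 21 was fitted apart on 10097 NM features, because its rows with XM accessions did not follow those of the other arrays. P-values were adjusted over all features by Benjamini-Hochberg, with a threshold of 0.05. The test was tried on simulated data for the day 4 contrast only. The planted changes were larger than the median differences reported here, so that trial does not bear on shifts of that size. Features were named through RefSeq accessions: 9731 of 26208 matched 1 symbol and 16477 none.

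Genes given on every array were the complex IV tissue forms with their common counterparts, and those with the 6 highest and 6 lowest differences per comparison. The members and lists were chosen with earlier results of these data known. Same-numbered samples did not deviate together (correlations of -0.226 to 0.187), so numbers were not used as pairs. The number of arrays limits the precision. Alternatives were quantile normalization, median centring, leaving out the dimmest 30% of features, NM features only, a replicate block, a trended prior, leaving out the 2 arrays highest in heart and fat genes, and leaving out each array. Single values of 2 genes are not reported here, while counts and medians include them.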

Additional observations from a re-analysis of the deposited data

Results flagged for a closer look

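Atp5f1d, Atp5mc2 and Sdhaf2 are listed because their IUGR arrays changed side between the days. At day 4 both IUGR arrays lay above both controls or below both, and at day 10 the reverse. The share of all features with such a switch was not counted. On single days, 18.3% of all features lay above both controls and 19.1% below at day 4, and 19.9% and 23.6% at day 10. The effect at day 10 minus that at day 4 was -0.46 for Atp5f1d (limma adjusted p = 0.587), -0.55 for Atp5mc2 (adjusted p = 0.591) and 0.13 for Sdhaf2 (adjusted p = 0.833), on the log2 scale. None of these differences passed.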

How the results depend on the processing

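For IUGR minus control and for day 10 minus day 4, the medians over the 54 genes kept their sign under quantile normalization, median centring, the filter on dim features, NM features only and a trended prior. The median of the difference between both effects (0.0026) turned negative under median centring. Without the 2 arrays highest in heart and fat genes (IUGR day 4 replicate 2 and IUGR day 10 replicate 2) the day 10 median was -0.026, and leaving out single arrays gave -0.026 to 0.20. In control lung the genes called lower at day 10 numbered 1 as reported, 0 with quantile normalization, 0 with the replicate block, 2 with the trended prior, 14 without the 2 arrays and 0 to 1 without single arrays, while 1440 of 26208 features (5.49%) were called lower without the 2 arrays against 522 (1.99%) as reported. In IUGR lung they numbered 6 as reported, 13 without the 2 arrays (1458 features, 5.56%, against 1614, 6.16%, as reported) and 2 to 12 without single arrays (150 to 2027 features). At day 21 the trended prior called 1 gene lower, with 27 features higher and 35 lower of 10097. Over all features, the day 10 minus day 4 contrast in control lung called 601 higher and 522 lower as reported, but 413 and 316 with the replicate block and, without single arrays, 2 to 1224 and 5 to 1040, so these background shares are unstable. The complex IV median in IUGR lung from day 4 to day 10 ranged from -0.36 to -0.071 without single arrays. For IUGR minus control at day 4, where none was called as reported and the trended prior called 1 lower, leaving out IUGR day 4 replicate 1 called 311 higher and 333 lower, and leaving out the 2 arrays called 30 and 30.

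Without the 2 arrays, 14 of the 54 genes changed sign at day 4 (13 to lower, 1 to higher) and 19 at day 10 (all to lower). Among the genes recomputed under every setting these were Cox8b (-0.15), Cox6a2 (-0.024) and Cox4i1 (-0.022) at day 4, Cox6a2 (-0.25), Cox7a2 (-0.20) and Cox8a (-0.0066) at day 10. In other comparisons they were Uqcrq (-0.043) for the difference of effects and Ndufa10l1 (-0.089) for IUGR lung from day 4 to day 10. With median centring the average over both days was 0.0049 for Sdha and 0.0056 for Sdhaf2. The causes were not tested. Some signs also changed when single arrays were left out. For IUGR minus control at day 4 this gave Cox4i1 between -0.022 and 0.11, Cox6a2 between -0.024 and 0.63, Cox6b2 between -0.42 and 0.026 and Cox8b between -0.15 and 1.22. For IUGR minus control at day 10 this gave Atp5f1b between -0.17 and 0.0098, Cox4i1 between -0.20 and 0.18, Cox6a1 between -0.18 and 0.13, Cox6a2 between -0.25 and 0.32, Cox7a2 between -0.20 and 0.29, Cox8a between -0.0066 and 0.26, Cox8c between -0.14 and 0.17, Sdha between -0.26 and 0.12 and Uqcrh between -0.17 and 0.0079. For the average of both days this gave Atp5f1b between -0.086 and 0.0043, Sdha between -0.10 and 0.092, Sdhaf2 between -0.012 and 0.0059 and Sdhc between -0.068 and 0.016. For the day 10 effect minus the day 4 effect this gave Cox6a2 between -0.59 and 0.057, Ndufv1 between -0.40 and 0.0046 and Uqcrq between -0.10 and 0.49. For day 10 minus day 4 in IUGR lung this gave Cox6b2 between -0.14 and 0.30, Cox8b between -0.39 and 1.52, Ndufa10 between -0.021 and 0.14 and Ndufa10l1 between -0.13 and 0.16. For day 10 minus day 4 in control lung this gave Ndufaf4 between -0.081 and 0.15, Sdha between -0.0013 and 0.23 and Sdhc between -0.016 and 0.10. For IUGR minus control at day 21 this gave Cox6a2 between -1.12 and 0.067 and Cox8c between -0.064 and 0.28. At day 21 leaving out an IUGR array left 1 array against 1, a value with no test. With 2 arrays a group, differences near the spread between pools could not be told from 0.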
